A study of Drosophila melanogaster with 2 samples.

Results

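The Cpr genes are a large family of cuticle protein genes of Drosophila melanogaster, named by their cytological position. They were examined here in ChIP-seq data for Capicua, an HMG-box repressor that acts downstream of receptor tyrosine kinases. The family was taken by name, as protein-coding genes of the dm6 annotation whose symbol is Cpr followed by a digit, which gave 70 of the 13945 protein-coding genes on the 6 major arms. The chromatin came from whole adult flies, with males and females pooled and age unknown, of a transgenic line that stably expresses Capicua with eGFP at its C-terminus. It was recovered with an antibody against GFP. The promoter that drives the fusion is not given in the sources used here. Both libraries, biological replicates 1 and 3, belong to a single group, so no comparison between conditions is possible, and the labels do not say whether the flies were raised separately. The values are the authors' peak lists: 7152 peaks past their reproducibility threshold (the reproducible list), 30000 relaxed peaks for both replicates pooled, and 30000 relaxed peaks for each replicate. The strength of a peak is the authors' deposited score, which has no fixed scale and no stated correction for depth, and the depth of the libraries is unknown. A gene was given the highest-scoring summit within 1000 bp of any of its annotated transcript starts, and such a summit is called a promoter summit. All statements below are descriptions, without a test, because the members are not replicates.

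Cpr proteins carry the Rebers and Riddiford consensus, a stretch that binds chitin, and together with chitin fibres they form the layers of the cuticle. Epidermal cells make them in bursts timed by ecdysone pulses around each moult, different members serving larval, pupal or adult cuticle, and many of the genes lie in tandem clusters that arose by duplication. In a whole adult fly the epidermis is mixed with all other tissues. Binding in few cells and weak binding in many cannot be told apart in such chromatin.

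Cpr genes mostly lacked Capicua-GFP peaks at their promoters. In the reproducible list, 1 of 70 Cpr genes (1.43%) had a promoter summit, against 30.5% of all protein-coding genes (4257 of 13945). In the pooled relaxed list, 10 of 70 (14.3%) had one, against 67.0% of all genes. The replicate lists gave 10 of 70 in replicate 1, against 67.0% of all genes, and 11 of 70 (15.7%) in replicate 3, against 65.9% of all genes. Both replicate lists held a promoter summit for 7 of 70 Cpr genes, against 61.2% of all genes. Counting all 4 lists, 14 of 70 Cpr genes had a promoter summit in at least 1 of them, against 72.2% of all genes, and 56 had none. The scores were low as well: the highest promoter score in the pooled list had a median of 47.8 over the 10 Cpr genes that had one, and of 107 over the 9344 genes of the whole annotation that had one. The pooled list starts at a score of 30.7.

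**Figure D1:**
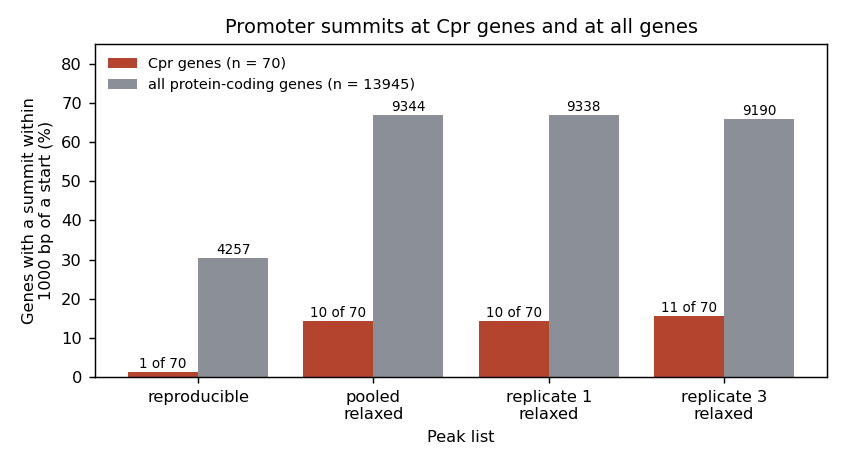
Share of genes (%, vertical axis) with a summit within 1000 bp of a start in each of 4 peak lists (horizontal axis), for the 70 Cpr genes (red) and all 13945 protein-coding genes (grey), with the number of genes above each bar. The Cpr share is 1.43% in the reproducible list and 14.3% to 15.7% in the relaxed lists, below the share of all genes in each.

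The single Cpr gene with a promoter summit in the reproducible list was Cpr73D (FBgn0036680, 3L from 16939100 to 16957689, minus strand). Its peak, from 16957203 to 16957600, scored 219 and ranked 2487 among the 7152 reproducible peaks, whose lowest score is 116. The replicates' own lists gave 119 in replicate 1 and 108 in replicate 3 (113 ± 7.77, SD, n = 2), with summits 23 bp apart. This summit was shared. It lay 256 bp from the distal start of Cpr73D and 6 bp from a start of Ogdh, which encodes the E1 subunit of the 2-oxoglutarate dehydrogenase complex of the TCA cycle. Ogdh is transcribed from the opposite strand, and its start at 16957439 lies 250 bp downstream of the Cpr73D start, so the genes overlap and the summit falls in the 5' UTR of Cpr73D and in an Ogdh intron as annotated. The other annotated start of Cpr73D lay 14484 bp away. When a summit was given only to the gene with the nearest start, Ogdh kept this one and no Cpr gene was left with a reproducible promoter summit. Replicate 1 also listed a lower-scoring summit 10 bp from a start of Cpr73D. The pooled list and replicate 3 had no such entry. The 30 bases around the reproducible summit, at chr3L:16957422-16957451 on the plus strand (dm6, RefSeq Release 6), are shown because this is the sole reproducible site of the family. The capitals run from the summit to the Ogdh start.
Cpr73D and Ogdh: ccgcttttgtaTTTTCGCttcagtcgacgc

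The other 9 members of the pooled list scored 31.0 to 70.2, all below the lowest reproducible score of 116. On 3L, Cpr62Ba scored 62.8 (26.7 in replicate 1 and 29.2 in replicate 3; 28.0 ± 1.74, SD, n = 2). Its summit at 1832203 lay 420 bp upstream of a start and the replicate summits 3 bp apart, the closest agreement in the family. Cpr67Fb scored 54.9, with a summit 857 bp upstream, and had a replicate 1 summit of 29.8 but none in replicate 3. Cpr64Ab scored 33.9 with a summit 135 bp downstream of its start, in an intron of this gene and of CG43367. Cpr78Cc scored 33.1 with a summit 29 bp downstream, in the 5' UTR. These intron and UTR summits appeared in replicate 3 alone, with 21.3 and 21.0. The start of a non-coding gene, lncRNA:CR45432, lay 868 bp from the Cpr78Cc summit. On 3R, Cpr97Eb scored 44.4, with a summit 7 bp from its start, the closest of the family, but its replicate summits lay 313 bp apart (30.6 in replicate 1 and 25.8 in replicate 3; 28.2 ± 3.40, SD, n = 2).

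The remaining 4 lay on 2R. Cpr49Aa scored 70.2, the highest after Cpr73D, with a summit 785 bp downstream of its start, beyond the 3' end of this short gene. The replicates gave it 37.7 in replicate 1 and 28.9 in replicate 3 (33.3 ± 6.24, SD, n = 2), at summits 131 bp apart. Its neighbour Cpr49Ab scored 31.0 at a second summit between the genes, 823 bp upstream of its own start and 991 bp from that of Cpr49Aa; the replicate 1 summit of 37.7 is the same entry for both. Cpr51A scored 51.2 at a summit 165 bp upstream of its start, with 30.6 in replicate 1 and 24.1 in replicate 3 (27.3 ± 4.58, SD, n = 2). Its replicate summits lay 109 bp apart. Cpr47Ee scored 36.0 at an intronic summit 971 bp from its start, with 20.6 in replicate 3 and no entry in replicate 1. Apart from the Cpr73D summit and this pair at 49A, the highest summit of each pooled member had no start of another protein-coding gene within 1000 bp. The authors' −log10 q reached its ceiling of 4.51 at Cpr73D, Cpr49Aa and Cpr62Ba, as it did at 16307 of the 30000 pooled peaks, and was 1.36 to 4.04 at the other 7.

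**Figure D2:**
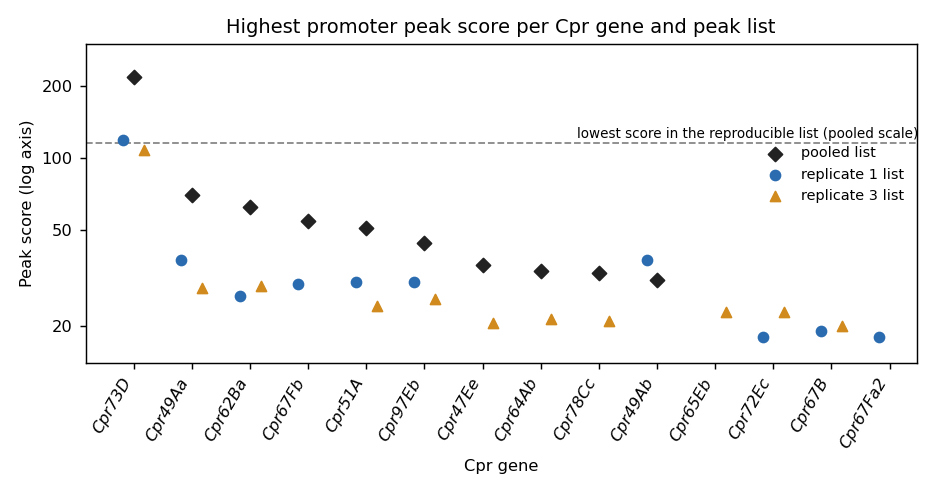
Highest promoter peak score (vertical log axis, the authors' score) of each of the 14 Cpr genes that have a promoter summit in any list (horizontal axis), from the pooled list (diamonds), replicate 1 (circles) and replicate 3 (triangles); a missing symbol means no summit within 1000 bp. The dashed line is the lowest score of the reproducible list, 116, which Cpr73D alone passes on the pooled scale, and the other pooled scores lie at 70.2 or below.

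A further 4 members had promoter summits in replicate lists but not in the pooled list. Cpr67B had an entry in each replicate (19.5 ± 0.690, SD, n = 2), at summits 633 bp apart. Cpr72Ec had 17.9 in replicate 1 and 22.8 in replicate 3, at summits 1453 bp apart on different sides of the start. Cpr65Eb had 22.8 in replicate 3 and Cpr67Fa2 had 17.9 in replicate 1. Each replicate list starts at 17.5, so these entries stand close to its floor. Members just inside the limit of 1000 bp were Cpr47Ee at 971 bp, Cpr67Fb at 857 bp and Cpr49Ab at 823 bp. Just outside it in the pooled list were Cpr60D at 1043 bp (score 74.0), Cpr67B at 1101 bp (33.9), Cpr66D at 1128 bp (38.5) and Cpr47Ef at 1309 bp (45.9).

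For most Cpr genes the nearest reproducible summit lay well outside the 1000 bp window. The median distance from a Cpr gene to the nearest one was 15449 bp, against 4832 bp for all protein-coding genes, and 17 of 70 (24.3%) had one within 10000 bp, against 64.3% of all genes. For the pooled relaxed list the medians were 3953 bp for Cpr genes and 183 bp for all genes. The distances to a reproducible summit ran from 256 bp at Cpr73D to 42210 bp. At the 90th percentile the order was reversed, with 35660 bp for Cpr genes and 52452 bp for all genes.

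**Figure D3:**
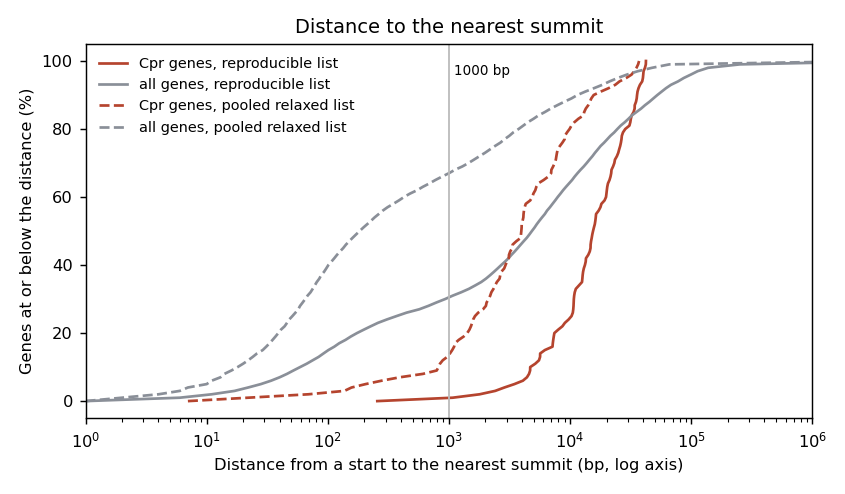
Percentage of genes (vertical axis) whose nearest summit lies at or below a given distance from a start (horizontal log axis, bp), for Cpr genes (red) and all protein-coding genes (grey), in the reproducible list (solid) and the pooled relaxed list (dashed). The medians in the reproducible list are 15449 bp for Cpr genes and 4832 bp for all genes. The red curves lie below the grey ones at 1000 bp but cross above them at long distances, and the solid red curve ends at 42210 bp.

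The reproducible summits closest to Cpr genes mostly lay at the starts of unrelated neighbours. The nearest after Cpr73D, 1441 bp from Cpr47Eg, scored 148 and lay 161 bp from the start of Vhl, the fly homologue of the von Hippel-Lindau tumour suppressor. A summit of 1080 lay 2359 bp from Cpr66Cb and 20 bp from the start of Pex2, a gene of peroxisome assembly. The Cpr67F genes stood beside a summit of 814 in an intron of Aps, 3025 bp from Cpr67Fb and 1375 bp from the nearest start of Aps. Cpr78Cc lay 4006 bp from a summit of 615 that was 72 bp from a start of CG11309, and Cpr31A lay 4670 bp from a summit of 131 that was 37 bp from CG33301. Cpr64Ad was an exception, since it was itself the gene with the nearest start to a summit of 199 in an intron of CG43367, but 4683 bp away. Of the other members in this distance range, Cpr49Ah lay 4479 bp from a summit of 169 that was nearer to CG42782.

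Of the 70 genes, 45 lay in 10 clusters of 3 or more, taken as runs of Cpr genes with gaps of at most 20 kb, and 25 lay outside them. No member of a cluster had a reproducible promoter summit, and the spans of the clusters, 169 kb in all, held no reproducible summit. The 6 arms together held 5.35 reproducible summits per 100 kb. Relaxed pooled summits numbered 11 in the clusters, or 6.49 per 100 kb, against 22.4 per 100 kb of the 6 arms. A relaxed promoter summit was found at 7 of 45 clustered members (15.6%) and at 3 of 25 others (12.0%), both below the 67.0% of all genes.

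Each cluster held 0 to 3 pooled relaxed summits. The 65A cluster, from Cpr65Au to Cpr65Az, was empty: its 30.3 kb held 7 Cpr genes, 10 larval or adult cuticle genes of the Lcp65A and Acp65Aa type and CG13297, and no summit of the pooled list or of either replicate list. The reproducible summits beside it lay 36.4 kb and 20.5 kb away. Much of the sequence around Cpr65Ax1 and Cpr65Ax2 in this cluster is repeated, as described below, so the absence of peaks there is uncertain. The 65E (Cpr65Ea to Cpr65Ec) and 72E (Cpr72Ea to Cpr72Ec) clusters also held no pooled summit, and a single summit each in a replicate list. The 49A cluster (Cpr49Aa to Cpr49Ah, 38.5 kb, 8 members) and the 47E cluster (Cpr47Ea to Cpr47Eg, 26.7 kb, 7 members) held 3 pooled summits each, the highest 70.2 and 45.9. A single pooled summit stood in each of 62B (Cpr62Ba to Cpr62Bc, 62.8), 64A (Cpr64Aa to Cpr64Ad, 33.9), 67F (Cpr67Fa1 to Cpr67Fb, 54.9), 78C (Cpr78Ca to Cpr78Cc, 33.1) and 76B (Cpr76Ba to Cpr76Bd, 37.6); that of 76B was at no member's promoter. Reproducible summits came within 4 kb of a cluster end at 47E (1.44 kb), 67F (2.50 kb), 49A (3.27 kb), 78C (3.42 kb) and 64A (3.65 kb).

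**Figure D4:**
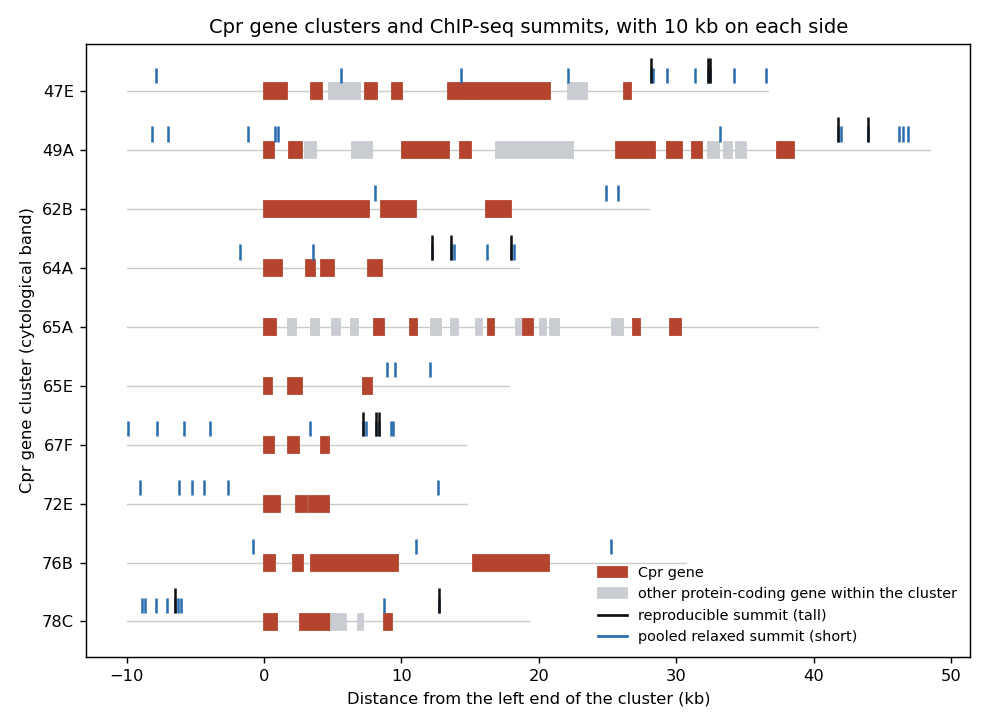
The 10 Cpr gene clusters (rows, by cytological band) with 10 kb on each side, drawn from the left end of each cluster (horizontal axis, kb); red boxes are Cpr genes, grey boxes other protein-coding genes inside the cluster, tall black ticks reproducible summits and short blue ticks pooled relaxed summits. Black ticks stand outside the clusters and none within them, and the 65A row has no tick of either kind.

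By arm, the pooled relaxed list reached 5 of 35 Cpr genes on 3L, 4 of 21 on 2R, 1 of 5 on 3R, 0 of 5 on 2L and 0 of 4 on X. Between 63.0% and 69.8% of all genes on these arms had such a summit. Gene structure also differed between the family and the annotation. A single annotated start was found for 63 of 70 Cpr genes (90.0%), against 73.5% of all genes, and a gene with more starts has more windows in which a summit counts. The start of another gene within 2000 bp was found for 35 of 70 (50%), against 60.8% of all genes. Among genes with 1 start and no other start within 2000 bp, a split chosen after the counts were seen, 0 of 32 Cpr genes had a reproducible promoter summit, against 15.1% of all such genes. In the pooled relaxed list 3 of 32 (9.38%) had one, against 46.9%. The Cpr share was thus below that of all genes with the same number of starts and no close neighbour. The level of transcription was not matched.

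A trait that the choice of genes did not use was the TATA box, the core promoter element bound by TBP. TATAAA on the gene's own strand, with its first base 40 to 20 bases upstream of the start, was found at 38 of 77 Cpr starts (49.4%), against 6.80% of all 19607 protein-coding starts. The DRE core TATCGATA, an element of broadly active promoters, was found on either strand from 250 bases before to 50 bases after 1 of 77 Cpr starts (1.30%), against 7.98% of all starts. The GC content of these windows had a median of 46.3% at Cpr starts and 39.3% at all starts. Among genes with such a TATAAA, 0 of 38 Cpr genes had a reproducible promoter summit, against 20.4% of all 1311 such genes. A relaxed one was found at 5 of 38 Cpr genes (13.2%), against 46.5% of all such genes. Among genes without it, 1 of 32 Cpr genes had a reproducible promoter summit, against 31.6% of all such genes. This split was also chosen after the counts were seen.

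The 60 bases upstream of the start show where the TATA box, given in capitals, lies in these promoters. They are from the RefSeq Release 6 assembly (dm6), on the gene's strand, and end at the base before the start. Those of Cpr78Cc and Cpr97Eb had a pooled relaxed summit within 30 bp of the start; the rest had none within 1000 bp in any list.
Cpr78Cc, chr3L:21300520-21300579: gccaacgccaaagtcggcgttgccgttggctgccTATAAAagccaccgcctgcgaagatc
Cpr97Eb, chr3R:27091131-27091190: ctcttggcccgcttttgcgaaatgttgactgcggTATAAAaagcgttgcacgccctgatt
Cpr64Aa, chr3L:4209179-4209238: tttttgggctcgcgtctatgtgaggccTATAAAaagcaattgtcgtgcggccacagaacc
Cpr65Av, chr3L:6139975-6140034: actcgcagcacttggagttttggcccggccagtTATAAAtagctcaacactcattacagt
Cpr67Fa1, chr3L:10889930-10889989: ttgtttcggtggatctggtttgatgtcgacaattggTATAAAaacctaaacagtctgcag
Cpr72Eb, chr3L:16364839-16364898: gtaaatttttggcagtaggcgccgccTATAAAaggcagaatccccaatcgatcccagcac
Cpr76Ba, chr3L:19518333-19518392: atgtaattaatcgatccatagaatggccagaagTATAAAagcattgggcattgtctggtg
Cpr100A, chr3R:30867461-30867520: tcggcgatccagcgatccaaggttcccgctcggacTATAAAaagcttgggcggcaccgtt

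Cpr65Ax1 and Cpr65Ax2 are near-identical copies, and their promoters are shown because a read from one can also match the other. Over the 300 bases from 250 before to 50 after the start, 294 of 303 aligned positions were identical (97.0%). Of the words of 50 bases within 1000 bp of their starts, 60.1% at Cpr65Ax2, and nearly the same share at Cpr65Ax1, occurred elsewhere on the 6 arms. No other Cpr gene exceeded 0.900%, and the mean was 1.74% over the family, against 2.58% over all genes. No source states how the authors treated reads with several matches, so the absence of peaks at this pair is uncertain.
Cpr65Ax1, chr3L:6147988-6148047: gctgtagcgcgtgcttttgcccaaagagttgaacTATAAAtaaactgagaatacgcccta
Cpr65Ax2, chr3L:6150858-6150917: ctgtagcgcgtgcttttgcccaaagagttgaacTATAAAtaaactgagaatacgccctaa

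The Capicua octamers TGAATGAA and TGAATGGA were sought on both strands. No promoter summit of a Cpr gene had either within 100 bp: 0 of 1 in the reproducible list and 0 of 10 in the pooled list, where 5.23% of all reproducible and 3.70% of all pooled summits had one. With so few summits and such low shares, a count of 0 says little about the family. From 250 bases before to 50 after a start, 5 of 77 Cpr starts (6.49%) held an octamer, each TGAATGAA, against 4.09% of all starts. These were at Cpr49Ad, Cpr62Ba, Cpr62Bb, Cpr65Ea and Cpr67B. The nearest reproducible summit lay 5559 bp to 42054 bp from these octamers.

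A match is a description of these letters, not a binding site. The octamers that lie in promoter windows on 3L are printed with 30 bases on each side, on the gene's strand, with the octamer or its reverse complement in capitals. That of Cpr62Ba lay 77 bp upstream of the start and 339 bp from its relaxed pooled summit, and that of Cpr67B lay 88 bp upstream and 306 bp from a replicate 3 summit. The octamer of Cpr62Bb was 229 bp and that of Cpr65Ea 152 bp upstream, and their nearest pooled summits lay 3193 bp and 8190 bp away.
Cpr62Ba, chr3L:1831830-1831897: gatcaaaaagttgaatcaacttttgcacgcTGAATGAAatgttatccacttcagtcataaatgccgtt
Cpr67B, chr3L:9404672-9404739: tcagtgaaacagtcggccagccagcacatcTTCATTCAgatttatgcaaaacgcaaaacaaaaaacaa
Cpr62Bb, chr3L:1835363-1835430: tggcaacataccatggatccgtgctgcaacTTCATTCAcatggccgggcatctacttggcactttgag
Cpr65Ea, chr3L:7086730-7086797: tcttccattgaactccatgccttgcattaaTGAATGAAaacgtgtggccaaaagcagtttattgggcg
For comparison, the 101 bases centred on the pooled summit of Cpr62Ba, chr3L:1832153-1832253 on the minus strand, hold no octamer, no TATAAA and no TATCGATA.
Cpr62Ba summit: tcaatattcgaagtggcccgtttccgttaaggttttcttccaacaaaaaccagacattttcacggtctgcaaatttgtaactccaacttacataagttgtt

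The other structural cuticle genes also had few promoter summits, against 30.5% of all genes in the reproducible list and 67.0% in the pooled relaxed list. A list of 29 genes with other names (such as the Lcp and Ccp84A genes) was taken by name as the same protein family. Their protein sequences were not checked for the consensus. Of these, 0 had a reproducible and 3 (10.3%) a relaxed promoter summit: Lcp9 (108), Lcp2 (40.4) and Lcp3 (40.4). Part of this list repeats loci described above, since the Lcp65A genes and Acp65Aa lie inside the 65A cluster and Edg78E inside 78C. The Tweedle genes, a separate family of cuticle proteins, gave 0 and 2 of 25, with TwdlW at 42.2 and TwdlG at 37.0. The Cpap genes, whose products bind chitin through peritrophin domains, gave 0 and 2 of 10, with Gasp at 35.9 and obst-E at 31.0. TATAAA stood at a start of 23 of the 29 genes (79.3%), 15 of the 25 Tweedle genes and 1 of the 10 Cpap genes. It stood at a start of 54.3% of Cpr genes, against 9.40% of all genes.

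The lists of genes that build chitin, tan the cuticle or control its genes are read against the same shares of all genes, 30.5% reproducible and 67.0% relaxed. For chitin synthesis and turnover, 7 of 29 (24.1%) had a reproducible and 21 (72.4%) a relaxed promoter summit. The first was somewhat below and the second somewhat above the share of all genes. Neither is read as a trait of so small a list. Among them mmy, the pyrophosphorylase that makes the sugar donor of chitin synthesis, scored 491 (245 ± 48.2 in the replicates, SD, n = 2). Cht9, a chitinase, scored 220 (111 ± 19.5, SD, n = 2). Idgf3, a chitinase-like growth factor, scored 196, with 126 in replicate 1 and 73.9 in replicate 3. The summit of 221 counted for Cht11 lay 18 bp from the start of CG4558, and the replicates differed, with 65.3 in replicate 1 and 158 in replicate 3. For tanning, 3 of 23 (13.0%) had a reproducible one, below the share of all genes, and 15 (65.2%) a relaxed one, close to it. The highest, Pal1 (581), encodes a peptide-amidating lyase, which is not itself a tanning enzyme, and its summit was nearer to Pdrg1. It was followed by speck (195), an N-acetyltransferase that acts on dopamine, and Pu (154), the GTP cyclohydrolase of pteridine synthesis. Of 17 cuticle regulators, 8 (47.1%) had a reproducible and 17 a relaxed promoter summit, both above the share of all genes. EcR, the ecdysone receptor, scored 1198 (601 ± 49.4, SD, n = 2), ftz-f1, a nuclear receptor of the moulting cascade, 468 (240 ± 19.3, SD, n = 2), Blimp-1, an ecdysone-induced repressor, 382, and Eip75B, an ecdysone-induced nuclear receptor, 273. A single start was annotated for 4 of these 17 genes, against 63 of the 70 Cpr genes, so the regulators had more windows per gene. Of all genes with 1 start, 23.5% had a reproducible and 60.4% a relaxed promoter summit, below the shares of all genes. The regulators were not compared with genes of the same number of starts, so their higher shares are not read as a trait of the list.

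**Figure D5:**
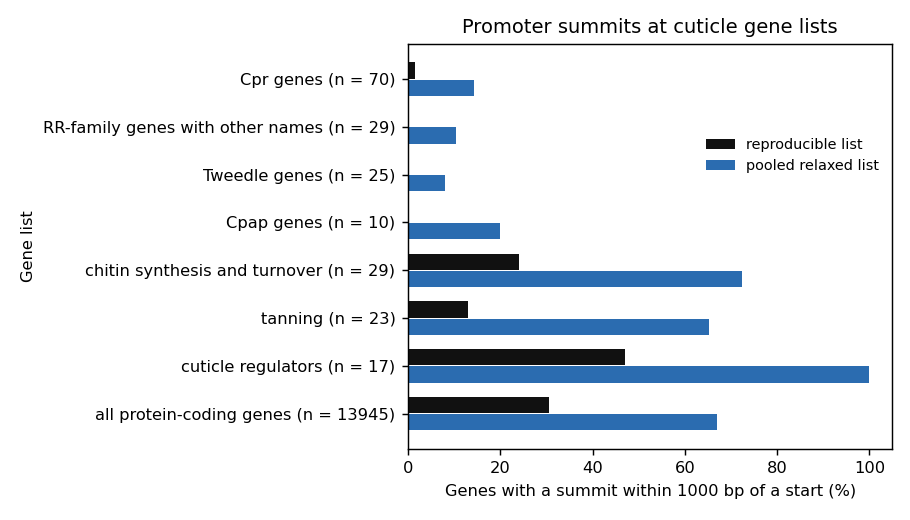
Share of genes (%, horizontal axis) with a summit within 1000 bp of a start for the Cpr genes, 6 other cuticle lists and all protein-coding genes (rows), in the reproducible list (black) and the pooled relaxed list (blue). The Cpr genes and the lists of structural cuticle genes below them show 0 to 1.43% in the reproducible list, against 30.5% for all genes.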

How the data were processed

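Per the labels, chromatin was sonicated to 200 to 800 bp and recovered with an antibody against GFP. The deposited text list of files records that peak calling used a control alignment; which aligner and peak caller ran, and how, is not stated there or in the labels, and no read depth is given. The authors deposited a score and a −log10 of the q-value for each peak; the score ranked peaks and the −log10 q was printed only. Coordinates are dm6, turned to 1-based positions. The dm3 lists were not used.

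Starts came from Ensembl release 115 and sequence from the RefSeq Release 6 assembly. For each gene the highest score of summits within 1000 bp of any start was taken, in the reproducible list or else in the pooled relaxed list, and in each replicate's list for the mean ± SD. Other lists were matched by symbol or synonym; Uap was not matched. Every Cpr gene with a reproducible promoter summit is named, with the 10 highest of the pooled list and up to 4 genes of each other list; Cpr66Cb, Cpr31A and other genes beside nearby summits, and the members with replicate or octamer entries only, were named after their values were seen. The members and lists were chosen with earlier results of these data known. Summit assignment and motif search were tested on simulated data. Tables were handled with pandas 2.3.3 and numpy 2.4.6 under Python 3.11.15, sequences were aligned with biopython 1.88, and figures were drawn with matplotlib 3.10.9.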

Additional observations from a re-analysis of the deposited data

How the results depend on the processing

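A replicate was left out by taking the 7152 highest peaks of the other replicate, and Cpr73D was the gene found each time. The share of Cpr genes with a reproducible promoter summit was 1.43% without replicate 1 (29.8% of all genes) and without replicate 3 (31.2%). It was also 1.43% within 500 bp (26.5% of all genes), with peaks of the upper 50% by score (16.3%), and when overlapping peaks were merged and kept their highest summit (30.4%). It was 2.86% within 2000 bp (35.9% of all genes), 11.4% within 5000 bp (50.7%) and 0% when a summit counted only for the nearest start (23.6%). The relaxed share, 14.3% in the main setting (67.0% of all genes), was 15.7% without replicate 1 (65.9%) and 14.3% without replicate 3 (67.0%). It was 27.1% within 2000 bp (73.1% of all genes) and 61.4% within 5000 bp (83.0%). It was 8.57% within 500 bp (61.4% of all genes), 12.9% with merged peaks (66.8%) and 12.9% for the nearest start alone (57.7%). The median relaxed score was 22.8 to 30.2 in the replicates' own lists, on their own scale, against 47.8. Clusters with a reproducible promoter summit numbered 0 under every alternative but 2000 bp (1) and 5000 bp (5). Summits nearer to another gene numbered 1, but 2 within 2000 bp and 11 within 5000 bp. No octamer was found at the Cpr summits without either replicate, within 50 or 250 bp, with the upper 50% of peaks or with merged peaks, the alternatives run for it. Few Cpr summits entered these runs, so the absence is uninformative there too. The other lists together gave 13.5% (30.5% of all genes), also without either replicate, and 29.3% within 5000 bp (50.7%). The single lists were less stable. Without replicate 1 (29.8% of all genes), chitin synthesis and turnover moved from 24.1% to 17.2% and tanning from 13.0% to 17.4%. The regulators moved from 47.1% to 52.9%. Without replicate 3 these shares did not change. No paired analysis was possible because there is 1 group. Depth is unknown, so a missing peak means only that none was listed.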
